A study of Mus musculus with 12 samples.

Results

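The 6 mouse genes that encode the chains of type IV collagen, *Col4a1* to *Col4a6*, were followed in RNA-seq of the dorsolateral geniculate nucleus (dLGN), the thalamic relay of vision, at postnatal day 0. They are 6 of the 24480 genes in each count table and were found by symbol. They were taken up because *Col4a3* and *Col4a4* had moved in opposite directions in the mutants of the 2 lines, so these 2 genes were chosen by their change in both contrasts, whereas the other 4 entered as members of the family. All 6 passed the filter on low counts in both lines.

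The libraries comprised 4 groups of 3, and each library held dLGNs pooled from 3 animals. Mutants of the *Sox2* line were Sox2flox/flox;Ror-alphaCre, and their controls carried Sox2flox/flox or Sox2flox/+ without Cre. Mutants of the *Nr2f1* line were Nr2f1 flox/flox;Ror-alphaCre. The genotype label of their controls names Nr2f1 flox/flox, Ror-alphaCre and no Cre together, whereas the methods of the study give them as Nr2f1 flox/flox or Nr2f1 flox/+. Both sets of controls were littermates without the Cre transgene by those methods. Cre is expressed from the *Rora* locus, so that deletion is limited to cells that express *Rora*, and only the mutants carry the insertion. Libraries are named here by the number or letter of their column in the tables: controls 1, 2 and 3 and mutants 1, 3 and 4 in the *Sox2* line, controls B, D and E and mutants A, B and C in the *Nr2f1* line. Total counts per library lay between 39293465 and 50095344.

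Type IV collagen is the collagen of basement membranes, the sheets that underlie endothelium and epithelium and surround muscle cells and the brain surface. Its chains join in threes into a few fixed combinations. The chains of *Col4a1* and *Col4a2* form the network found in basement membranes in general, including those of brain vessels. The chains of *Col4a3*, *Col4a4* and *Col4a5* form a second network, best known from the filter of the kidney and from Alport syndrome, and the chains of *Col4a5* and *Col4a6* a further network, found for example around smooth muscle. The genes lie in pairs, head to head, with the starts of the members of a pair close together on opposite strands.

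The targeted genes were read first as a check of the labels. *Sox2*, which encodes an HMG-box transcription factor, averaged 365 ± 14.6 CPM (counts scaled to library size after TMM normalization, mean ± SD, n = 3) in controls and 139 ± 20.5 CPM in mutants of its line, a fall to 38.0% of the controls. *Nr2f1*, which encodes an orphan nuclear receptor, averaged 357 ± 37.7 CPM in controls and 120 ± 27.6 CPM in mutants of its line, a fall to 33.6%. Both fell in the mutants named for them (log2 fold change −1.40, SE 0.10, FDR = 4.83e-05 in edgeR, and −1.57, SE 0.14, FDR = 3.48e-04 in edgeR), and all mutants lay below all controls. *Rora*, which holds the Cre, fell in *Sox2* mutants (log2 fold change −1.96, SE 0.12, FDR = 2.07e-05 in edgeR) and did not pass the test in *Nr2f1* mutants (−0.25, SE 0.11, FDR = 0.204 in edgeR). *Sox2* also fell in *Nr2f1* mutants, to 68.1% of their controls (−0.55, SE 0.09, FDR = 0.00635 in edgeR), a call kept without mutant B and lost without any other library of that line (edgeR FDR up to 0.0409), and lost with Y-linked genes as a covariate (0.0607). *Nr2f1* stood at 76.7% of controls in *Sox2* mutants, with overlapping groups, and did not pass (−0.39, SE 0.13, FDR = 0.0559 in edgeR). The thalamic identity of the tissue was visible in *Tcf7l2*, a transcription factor of thalamic neurons, at 755 ± 109 CPM in controls of the *Sox2* line and 868 ± 26.5 CPM in controls of the *Nr2f1* line.

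Of the 3 pairs, *Col4a4* and *Col4a3* are described first, since they were chosen for their opposite changes in the 2 lines. *Col4a4* starts at chr1:82586849 on the minus strand and *Col4a3* at chr1:82586921 on the plus strand (GRCm38), with 71 bases between. These bases are shown because each start lies directly beside them. They are printed from RefSeq, in the direction of *Col4a4* transcription, followed by the stretch around the only match to the searched motifs before a member (in capitals).
chr1:82586850-82586920, minus strand: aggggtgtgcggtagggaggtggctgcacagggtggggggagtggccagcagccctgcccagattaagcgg
chr1:82586922-82586951, minus strand: cctagcgggtgcAGGTCAacgtgaggaatt
The capitals mark AGGTCA, the half-site letters of nuclear receptors. The match begins 90 bases before the *Col4a4* start and ends, read in this direction, at base 14 of *Col4a3*, so that it lies in the transcribed part of the neighbour. Other RefSeq models of *Col4a4* begin further upstream, and with these the spans of the 2 genes overlap by 114 bases.

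The other pairs are arranged alike but at other distances. *Col4a1* (start at chr8:11312826, minus strand) and *Col4a2* (start at chr8:11312805, plus strand) overlap by 22 bases at their starts, and by 85 bases over their whole RefSeq spans. *Col4a6* (start at chrX:141474076, minus strand) and *Col4a5* (start at chrX:141475419, plus strand) are 1342 bases apart, so that each has upstream sequence of its own. It is shown to let the start regions of an X-linked pair be set beside the short interval on chromosome 1, and holds none of the searched letters.
*Col4a6*, chrX:141474096-141474326, minus strand: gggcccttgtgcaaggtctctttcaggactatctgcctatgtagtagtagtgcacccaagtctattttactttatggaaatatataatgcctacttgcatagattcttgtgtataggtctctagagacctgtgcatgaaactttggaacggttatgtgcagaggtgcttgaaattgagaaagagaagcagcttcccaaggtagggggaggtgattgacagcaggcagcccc
*Col4a5*, chrX:141475169-141475369, plus strand: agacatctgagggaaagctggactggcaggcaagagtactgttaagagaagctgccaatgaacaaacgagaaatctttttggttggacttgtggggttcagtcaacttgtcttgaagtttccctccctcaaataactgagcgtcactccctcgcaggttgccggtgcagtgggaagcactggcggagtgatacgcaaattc
In the 250 bases before the start, *Col4a1* and *Col4a2* held 31 and 26 CpG, *Col4a4* and *Col4a5* 10 each and *Col4a6* 3, beside a median of 6 over 32851 promoters of that length. The letters ACAAAG and ACAATG, which resemble the core bound by SOX proteins, were in none of these 5 windows on either strand, and 16.5% and 10.7% of all promoters hold them. AGGTCA was in the *Col4a4* window alone, once, and 14.0% of all promoters hold it. *Col4a3* had no entry. A match or its lack describes these letters in these windows.

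The pairs differed widely in level. Levels were taken per kilobase of the longest GENCODE transcript matched to RefSeq. The controls of the *Sox2* line held 78.6 ± 25.8 CPM per kb of *Col4a1* and 65.3 ± 17.3 CPM per kb of *Col4a2* (SD, n = 3). *Col4a5* stood at 5.28 ± 1.48 CPM per kb and *Col4a6* at 2.88 ± 1.19 CPM per kb. *Col4a4* stood at 0.278 ± 0.0216 CPM per kb and *Col4a3* at 0.266 ± 0.0552 CPM per kb. The means of *Col4a1* and *Col4a2* differed by less than the SD between libraries, as did those of *Col4a3* and *Col4a4*, while the steps between the pairs were larger. Within each of the 12 libraries, however, *Col4a1* stood above *Col4a2*, by a factor of 1.15 to 1.27. The order of the pairs was the same in the controls of the *Nr2f1* line, where *Col4a1* stood at 64.1 ± 10.9 CPM per kb, *Col4a5* at 4.02 ± 0.808 CPM per kb and *Col4a3* at 0.271 ± 0.0843 CPM per kb.

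As shares of the 6 levels per kb in the *Sox2* line controls, *Col4a1* took 51.2 ± 1.38% and *Col4a2* 43.0 ± 1.35%. *Col4a3* took 0.183 ± 0.0632% and *Col4a4* 0.194 ± 0.0609%. The chains of the common network thus made up nearly the whole of the type IV collagen RNA in these libraries. *Col4a5*, the chain that joins those of *Col4a3* and *Col4a4*, stood 15.1 to 25.4 times above *Col4a3* per kb in these controls.

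Within a pair, the levels per kb differed by a factor of at most 2.08 in every library. The ratio of *Col4a1* to *Col4a2* lay between 1.15 and 1.27 over the 12 libraries, and that of *Col4a5* to *Col4a6* between 1.59 and 2.08. For *Col4a1* to *Col4a2* it was 1.17 to 1.18 in controls and 1.23 to 1.24 in mutants of the *Nr2f1* line. In the *Sox2* line it was 1.15 to 1.27 and 1.21 to 1.23, so the groups overlapped. A difference in this ratio was not tested. The ratio of *Col4a3* to *Col4a4* ran from 0.748 to 1.33, with means of 0.959 ± 0.183 and 1.18 ± 0.146 in controls and mutants of the *Sox2* line and 0.976 ± 0.281 and 1.06 ± 0.191 in those of the *Nr2f1* line. This last ratio rests on few reads. *Col4a3* had 35 to 289 counts in a library and *Col4a4* 33 to 313, beside at least 14224 for *Col4a1*.

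*Col4a3* was chosen by its change in both lines, and its values are given as a description without a test. In the *Sox2* line it stood at 2.71, 1.78 and 2.34 CPM in controls 1, 2 and 3. In mutants 1, 3 and 4 it stood at 0.892, 0.937 and 0.770 CPM, so that each mutant lay below each control. The log2 fold change was −1.40 (SE 0.25), a mean of 38.1% of the controls. Controls B, D and E of the *Nr2f1* line held 3.14, 1.83 and 1.97 CPM. Mutants A, B and C held 5.79, 5.29 and 6.27 CPM, each above each control. The log2 fold change there was 1.33 (SE 0.21).

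*Col4a4*, chosen in the same way, gave the same picture with a narrower spread between controls. It stood at 3.02, 2.80 and 2.59 CPM in the *Sox2* line controls and at 0.795, 0.937 and 0.880 CPM in the mutants. The log2 fold change was −1.69 (SE 0.21), a mean of 31.0% of the controls. In the *Nr2f1* line it stood at 2.86, 2.67 and 2.85 CPM in controls and at 7.92, 5.85 and 5.94 CPM in mutants, with a log2 fold change of 1.23 (SE 0.16). Controls of the 2 lines were alike, at means of 2.80 ± 0.218 and 2.79 ± 0.106 CPM, with *Sox2* mutants below them and *Nr2f1* mutants above. Subtracting the change of the *Nr2f1* line from that of the *Sox2* line gave −2.72 (SE 0.32) for *Col4a3* and −2.92 (SE 0.23) for *Col4a4* on the log2 scale, untested since it is what the genes were chosen for. In bulk tissue, fewer cells that express a gene and less of its RNA per cell cannot be told apart.

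**Figure D1:**
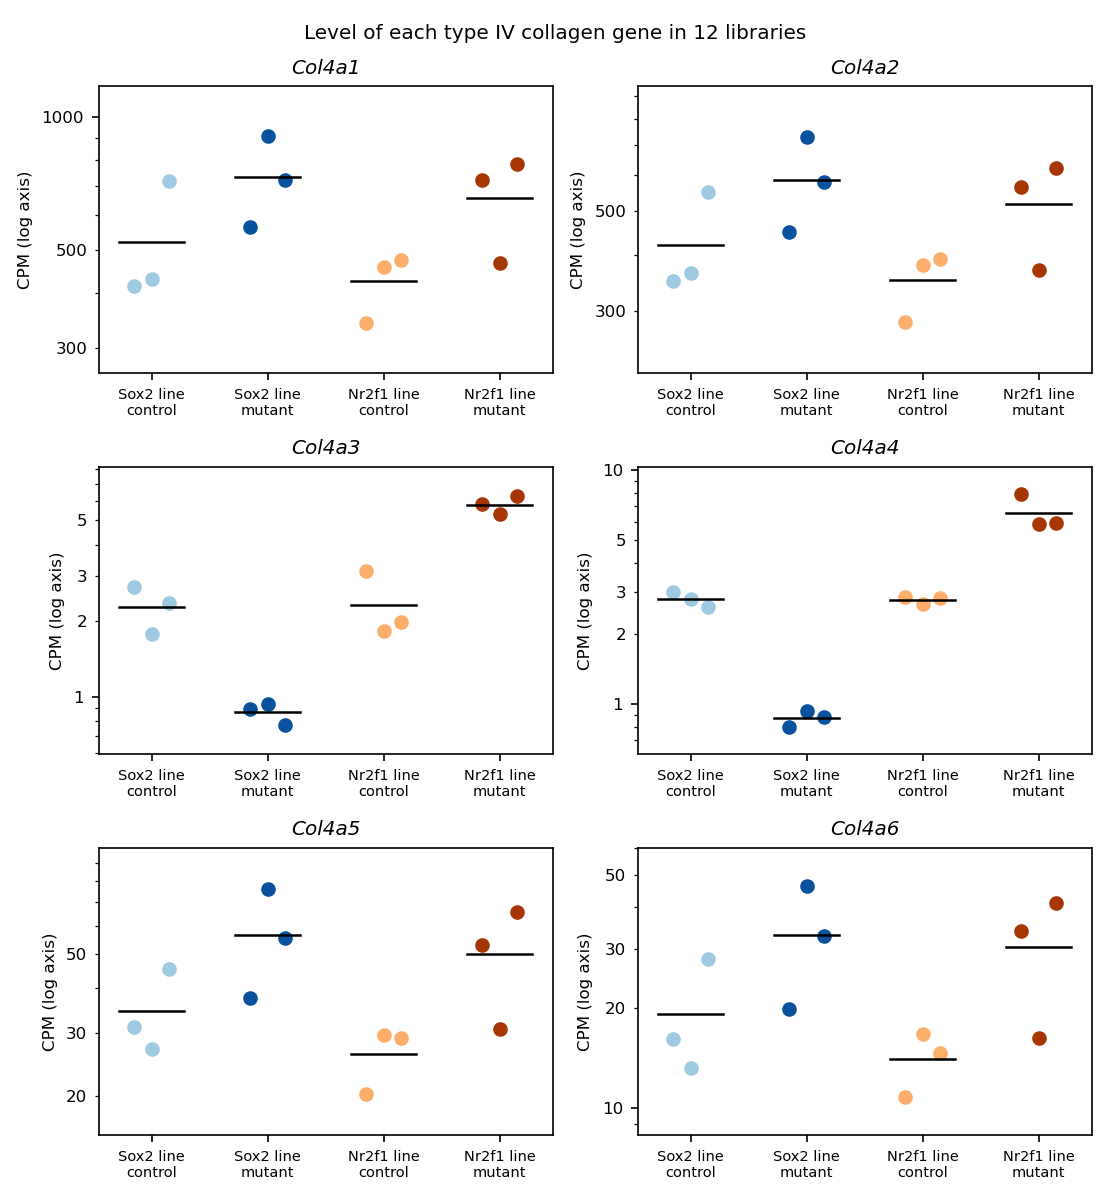
Level of each type IV collagen gene in CPM, on a log axis, in the controls and mutants of the *Sox2* and *Nr2f1* lines. Each point is a library and each line the mean of 3. *Col4a3* and *Col4a4* lie below their controls in *Sox2* mutants and above them in *Nr2f1* mutants, and the other 4 genes overlap between groups except *Col4a5* in the *Nr2f1* line.

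The other pairs had higher means in the mutants of both lines, as *Col4a3* and *Col4a4* had in *Nr2f1* mutants alone, and a difference between pairs was not tested. *Col4a1*, the chain present in most basement membranes, stood at 414, 430 and 717 CPM in the *Sox2* line controls 1, 2 and 3 and at 565, 907 and 722 CPM in mutants 1, 3 and 4. Control 3 was above mutant 1, so the groups overlapped. The mean was higher in mutants by a log2 fold change of 0.49 (SE 0.22), which did not pass the threshold of FDR below 0.01 (FDR = 0.139 in edgeR). For the *Nr2f1* line *Col4a1* stood at 341, 456 and 475 CPM in controls B, D and E and at 719, 468 and 784 CPM in mutants A, B and C, with mutant B among the controls. The log2 fold change was 0.63 (SE 0.18, FDR = 0.0645 in edgeR).

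*Col4a2*, its partner in the same triple helix, ranged from 350 to 550 CPM in controls and from 449 to 727 CPM in mutants of the *Sox2* line. The log2 fold change was 0.47 (SE 0.19, FDR = 0.116 in edgeR). Its range in the *Nr2f1* line was 284 to 392 CPM in controls and 370 to 622 CPM in mutants, a log2 fold change of 0.56 (SE 0.18, FDR = 0.0896 in edgeR). Mutant B was again within the range of the controls.

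*Col4a5*, mutated in X-linked Alport syndrome, stood at 31.2, 26.9 and 45.4 CPM in the *Sox2* line controls and at 37.7, 76.3 and 55.5 CPM in mutants. Control 3 lay above mutant 1, and the log2 fold change of 0.71 (SE 0.24) did not pass the threshold (FDR = 0.0691 in edgeR). Values in the *Nr2f1* line were 20.2, 29.6 and 29.0 CPM in controls and 53.0, 30.7 and 65.7 CPM in mutants. Here the groups did not overlap, although mutant B was close to controls D and E, and the log2 fold change of 0.92 (SE 0.24) did not pass (FDR = 0.0510 in edgeR).

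*Col4a6*, the other chain of the X-linked pair, stood at 16.2, 13.2 and 28.1 CPM in the *Sox2* line controls and at 19.8, 46.3 and 32.8 CPM in mutants, a log2 fold change of 0.78 (SE 0.32, FDR = 0.111 in edgeR). In the *Nr2f1* line it stood at 10.8, 16.7 and 14.6 CPM in controls and at 34.0, 16.2 and 41.2 CPM in mutants, a log2 fold change of 1.11 (SE 0.29, FDR = 0.04995 in edgeR). *Col4a5* and *Col4a6* are X-linked, and the pools differed in Y-linked RNA. The mean of 4 Y-linked genes was 8.27, 28.04 and 9.01 CPM in controls and 27.3, 16.9 and 13.5 CPM in mutants of the *Sox2* line, and 11, 17.4 and 24.5 CPM in controls and 0, 8.19 and 13.1 CPM in mutants A, B and C. With these as a covariate the log2 fold changes were 0.88 and 0.91 for *Col4a5* and 1.04 and 1.06 for *Col4a6* in the *Sox2* and *Nr2f1* lines, without passing the threshold in edgeR. In all 4 genes the same libraries were high: control 3 and mutants 3 and 4 in the *Sox2* line, mutants A and C in the *Nr2f1* line.

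Of these 4 genes, 0 passed edgeR at FDR below 0.01 in either line. Each had an unadjusted p below 0.05 in both lines, as had 35.0% of all genes tested in the *Sox2* line (18.7% higher in mutants) and 24.6% in the *Nr2f1* line (13.5% higher). With DESeq2 0 of the 4 passed, against 12.6% and 5.80% of all genes with any count. Over all genes tested, 8.08% passed in the *Sox2* line, 3.90% higher and 4.19% lower in mutants, and 37.9% had groups that did not overlap. In the *Nr2f1* line 2.54% passed, 1.22% higher and 1.32% lower, and 28.7% had groups that did not overlap, as did *Col4a5*. Leaving out a single library changed some of these calls. Without mutant B, for which the calls over all genes went from 396 to 868, edgeR called all 4 higher in *Nr2f1* mutants, with FDR = 0.00214 for *Col4a1* (0.00214 to 0.237 over its alternatives), 0.00332 for *Col4a2* (0.00332 to 0.279), 0.00121 for *Col4a5* (0.00121 to 0.187) and 5.52e-04 for *Col4a6* (5.52e-04 to 0.193). Without control 3, for which they went from 1261 to 2161, *Col4a1* passed in *Sox2* mutants (FDR = 0.00606 in edgeR, from 0.00606 to 0.385 over its alternatives). With a block for the column numbers shared by *Sox2* line controls and mutants, *Col4a5* (FDR = 0.00157 in edgeR) and *Col4a6* (FDR = 0.00344 in edgeR) passed. That fit held 4 libraries, and 2 pairs were too few to take the numbers as pairing them.

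The difference between the mutants was tested for these 4 genes by the interaction of line and genotype, for which 1.44% of all genes passed. *Col4a1* differed by −0.14 (95% interval −0.85 to 0.57, FDR = 0.904 in edgeR) and *Col4a2* by −0.08 (−0.75 to 0.58, FDR = 0.942 in edgeR). *Col4a5* differed by −0.21 (−1.09 to 0.66, FDR = 0.875 in edgeR) and *Col4a6* by −0.33 (−1.42 to 0.76, FDR = 0.834 in edgeR). A difference between the lines was thus not detected, within intervals that reach beyond 0.5 on the log2 scale on both sides.

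**Figure D2:**
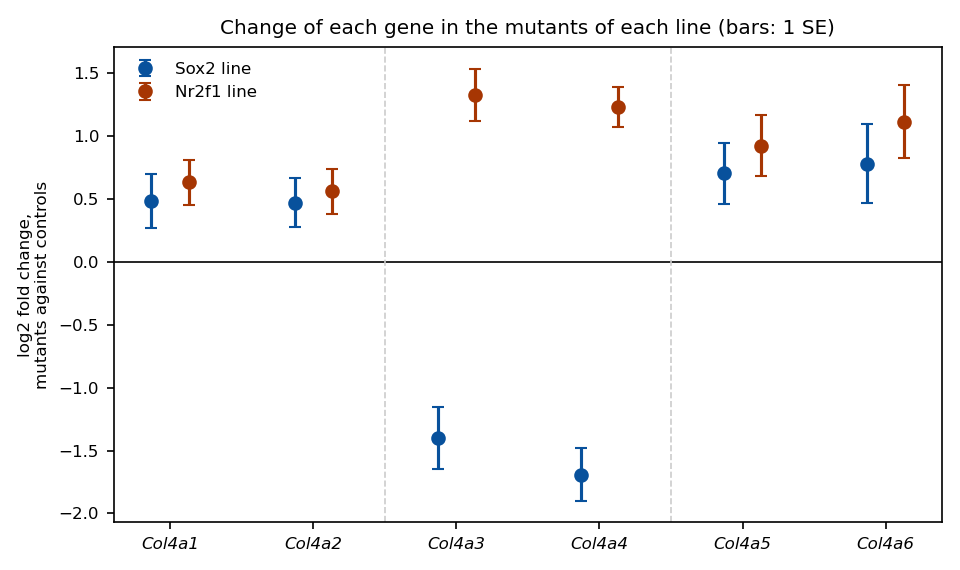
log2 fold change of mutants against controls of the same line for each gene, with bars of 1 SE, from the fit of each line. Dashed lines separate the pairs. *Col4a3* and *Col4a4* lie at −1.40 and −1.69 for *Sox2* mutants and at 1.33 and 1.23 for *Nr2f1* mutants, and the other genes between 0.47 and 1.11 in both lines.

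Vessels and meninges produce much of the type IV collagen of the brain, and their marker genes were high in the same libraries as *Col4a1*, *Col4a2*, *Col4a5* and *Col4a6*. Endothelial markers (12 genes, most abundant the tight junction gene *Cldn5*) summed to 400, 432 and 625 CPM in the *Sox2* line controls and to 563, 728 and 661 CPM in mutants. In the *Nr2f1* line they summed to 384, 481 and 410 CPM in controls and to 609, 466 and 651 CPM in mutants. Within their lines control 3, mutants 3 and 4 and mutants A and C were high, as for the collagen genes. Mutant B lay within its controls, as it did for *Col4a1*, *Col4a2* and *Col4a6* but not for *Col4a5*. Their part in the result was not tested.

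Markers of meningeal and perivascular fibroblasts (12 genes, most abundant the growth factor gene *Igf2*) spread further. They summed to 1370, 1310 and 2631 CPM in the *Sox2* line controls and to 1981, 4414 and 2513 CPM in mutants. Sums in the *Nr2f1* line were 981, 1449 and 1518 CPM in controls and 2787, 1431 and 3392 CPM in mutants. The libraries with the highest sums, mutants 3 and C, were also those with the most *Col4a6*. Markers of pericytes and smooth muscle (12 genes, most abundant *Notch3*) summed to 536, 575 and 771 CPM in controls and 730, 904 and 833 CPM in mutants of the *Sox2* line, and to 535, 598 and 610 CPM in controls and 724, 596 and 774 CPM in mutants of the *Nr2f1* line.

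In both lines, 0 of the 12 genes of each of these 3 lists passed edgeR at FDR below 0.01. Endothelial markers had 8 and 11 genes at an unadjusted p below 0.05 in the *Sox2* and the *Nr2f1* line, and DESeq2 called 1 and 4. Pericyte markers had 9 and 6 such genes, with 1 and 2 called by DESeq2, and fibroblast markers 6 and 10, with 0 and 0 called. Over all genes 35.0% and 24.6% were at such a p, and DESeq2 called 12.6% and 5.80%. The median log2 fold change was 0.42, 0.51 and 0.68 for the endothelial, pericyte and fibroblast lists in *Sox2* mutants, and 0.39, 0.48 and 0.98 in *Nr2f1* mutants. Over all genes tested the median was 4.97e-04 and 0.01. No marker of these lists was at 0 in any library.

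**Figure D3:**
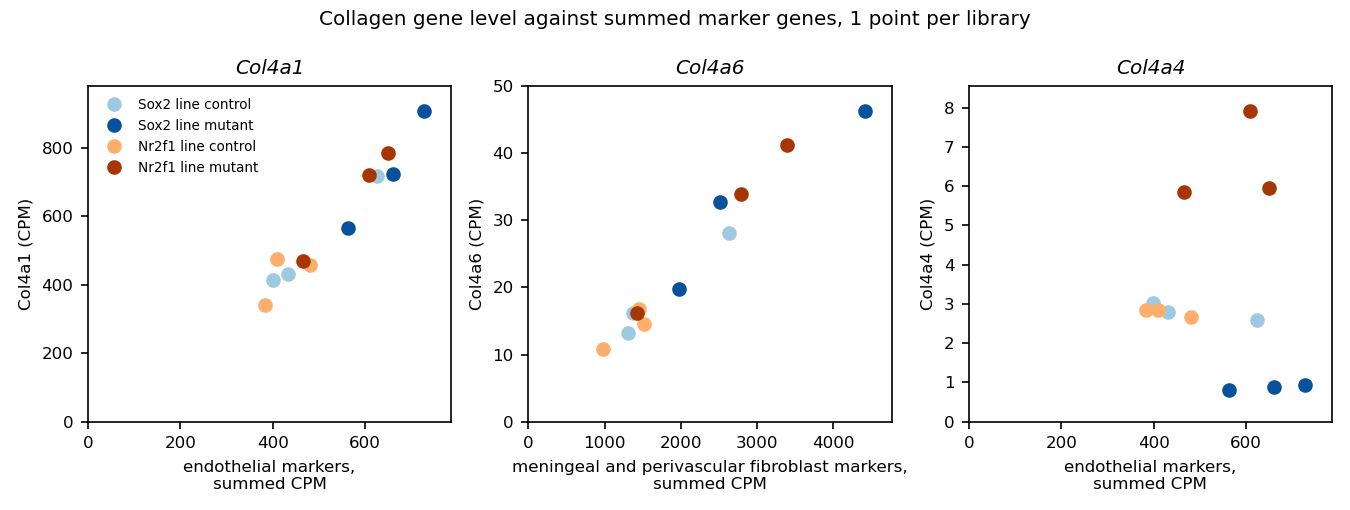
Level of *Col4a1*, *Col4a6* and *Col4a4* in CPM against the summed CPM of endothelial markers (left and right) or of meningeal and perivascular fibroblast markers (middle), with a point for each library. *Col4a1* and *Col4a6* are high in the libraries with high marker sums, in controls and mutants alike, and *Col4a4*, chosen by its change in both lines, is at most 0.937 CPM in *Sox2* mutants and at least 5.85 CPM in *Nr2f1* mutants.

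Likeness over the 12 libraries, by Pearson's r of log2 CPM with the mean of a pair, is a description and carries no p, since the libraries share groups and tissue composition. For *Col4a3* and *Col4a4* it restates the changes they were chosen for. *Col4a1* and *Col4a2* correlated at r = 0.997 with each other and *Col4a5* and *Col4a6* at r = 0.993. Between these 2 pairs r ran from 0.978 (*Col4a1* and *Col4a6*) to 0.985 (*Col4a2* and *Col4a5*), while *Col4a1* and *Col4a3* had r = −0.14. *Col4a3* and *Col4a4* correlated at r = 0.966. Of 15391 other genes tested in both lines, 277, 83 and 271 had r above 0.9 with the first, the second and the third pair.

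The 5 genes most like *Col4a1* and *Col4a2* were *Igf2* (r = 0.992, Spearman's rho = 0.951), the perlecan gene *Hspg2* (r = 0.991, rho = 0.923), the fibrillar collagen gene *Col1a2* (r = 0.991, rho = 0.965), the chemokine gene *Cxcl12* (r = 0.987, rho = 0.867) and *Fstl1* (r = 0.986, rho = 0.923). Those most like *Col4a5* and *Col4a6* were the small proteoglycan gene *Bgn* (r = 0.994), *Igf2* (r = 0.991), the macrophage receptor gene *Mrc1* (r = 0.991), *Col6a3* (r = 0.990) and the transporter gene *Slc6a13* (r = 0.989). All of these, matrix, growth factor and border cell genes, had higher means in the mutants of both lines.

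The 5 genes most like *Col4a3* and *Col4a4* were other genes. They were *Trpm8*, the channel of cold sensing (r = 0.982, rho = 0.860), *Cacna1d*, a subunit of L-type calcium channels (r = 0.981, rho = 0.937), the membrane protease gene *St14* (r = 0.976, rho = 0.888), *Large*, a glycosyltransferase that lets dystroglycan bind laminin (r = 0.974, rho = 0.895), and *Dact1*, a modulator of Wnt signalling (r = 0.971, rho = 0.776). *Trpm8* had log2 fold changes of −1.56 and 1.27 in *Sox2* and *Nr2f1* mutants, *St14* of −1.79 and 0.92, and *Large* of −0.49 and 0.60. Each of the 5 was lower in *Sox2* mutants and higher in *Nr2f1* mutants, as the way they were chosen implies. None of this assigns *Col4a3* and *Col4a4* to a cell type.

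The genes beside the pairs were read next. Of the 18 tested genes that are the 3 nearest on each side of a pair, 2 passed in *Sox2* mutants and 1 passed in *Nr2f1* mutants, beside 8.08% and 2.54% of all genes, so that the neighbours were near the share of genes in general. Beside *Col4a3* and *Col4a4*, *Rhbdd1* (3.05 kb away) had a log2 fold change of 0.44 (SE 0.17, FDR = 0.103 in edgeR) in *Sox2* mutants and *Mff* (2.83 kb away) one of −0.04 (SE 0.06, FDR = 0.688 in edgeR). In *Nr2f1* mutants *Rhbdd1* stood at 0.02 (SE 0.19, FDR = 0.964 in edgeR) and *Mff* at −0.08 (SE 0.05, FDR = 0.369 in edgeR), so neither flanking gene passed in either line. The genes that passed were *Myo16*, an unconventional myosin 564 kb from *Col4a1*, which fell in both lines (log2 fold change −0.997, SE 0.09, FDR = 1.44e-04 in edgeR, and −0.47, SE 0.08, FDR = 0.00734 in edgeR), and the insulin receptor substrate gene *Irs4*, 21.8 kb from *Col4a5*, which rose in *Sox2* mutants (1.47, SE 0.27, FDR = 0.00586 in edgeR) at 0.950 CPM in controls and 2.66 CPM in mutants. The call of *Myo16* in *Nr2f1* mutants was lost on leaving out any library but mutant B (edgeR FDR from 0.0115 to 0.0338) or with Y-linked genes as a covariate (0.0402), and that of *Irs4* without controls 1 or 2 or mutants 1 or 3 (edgeR FDR from 0.0139 to 0.0275) or with that covariate (0.0194).

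Basement membranes are built from type IV collagen together with laminins, nidogens, perlecan and other partners. Of 29 such partner genes, 6 rose and 1 fell in *Sox2* mutants at FDR below 0.01, where 3.90% of all genes rose and 4.19% fell, and the median log2 fold change was 0.60. The nidogen genes (FDR = 0.0301 and 0.0955 in edgeR) and *Hspg2* (FDR = 0.141 in edgeR) did not pass. The only laminin gene among the risers averaged 0.269 CPM in controls and 0.991 CPM in mutants. *Frem2*, a matrix protein at basement membranes, rose from 17.8 ± 0.719 CPM to 33.2 ± 3.11 CPM (0.89 as log2 fold change, SE 0.09, FDR = 2.49e-04 in edgeR). *Smoc2*, a secreted calcium-binding protein, rose from 0.690 ± 0.176 to 2.96 ± 0.203 CPM (2.09, SE 0.25, FDR = 5.08e-04 in edgeR), and *Sparcl1*, secreted by astrocytes, from 928 ± 94.9 to 1428 ± 140 CPM (0.61, SE 0.09, FDR = 0.00223 in edgeR). *Fras1*, which acts with *Frem2* in basement membranes, fell from 34.6 ± 4.86 to 20.7 ± 1.77 CPM (−0.75, SE 0.12, FDR = 0.00235 in edgeR). The call of *Sparcl1* was lost without control 1, control 2 or mutant 4 (edgeR FDR up to 0.0170) and that of *Fras1* without control 2 (FDR = 0.0123 in edgeR, from 6.58e-08 to 0.0123 over its alternatives).

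Of the 24 genes listed for synthesis and cross-linking of type IV collagen, some of which are not specific to it, 1 passed in *Sox2* mutants. Of all genes 8.08% passed. *P4ha3*, a subunit of prolyl 4-hydroxylase, rose from 6.82 ± 0.441 to 10.5 ± 0.764 CPM (0.61, SE 0.12, FDR = 0.00673 in edgeR), a call lost on leaving out any of the 6 libraries (edgeR FDR from 0.0102 to 0.0262). Of 16 receptors, the laminin receptor subunits *Itga7* (0.83, SE 0.07, FDR = 1.08e-04 in edgeR) and *Itga6* (0.70, SE 0.12, FDR = 0.00357 in edgeR) rose and *Itga3* (−0.43, SE 0.06, FDR = 0.00181 in edgeR) fell. Of 14 matrix proteases and inhibitors 12 were tested, and *Mmp24*, a membrane-bound protease, fell (−0.46, SE 0.07, FDR = 0.00257 in edgeR). Leaving out control 2 or mutant 4 ended the calls of *Itga6*, *Itga3* and *Mmp24* (edgeR FDR up to 0.0209, 0.0111 and 0.0167), as did control 1 for *Itga6* (0.0219) and *Mmp24* (0.0110) and mutant 3 for *Mmp24* (0.0114). The medians of these 3 lists were 0.28, 0.32 and 0.30.

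In *Nr2f1* mutants 0 of the 81 tested genes of the 4 lists passed edgeR at FDR below 0.01. At an unadjusted p below 0.05 there were 39, of which 36 were higher in mutants, and DESeq2 called 11, where 24.6%, 13.5% and 5.80% of all genes met these limits. The median log2 fold change was 0.48 for the partners, 0.13 for synthesis and cross-linking, 0.15 for receptors and 0.13 for proteases and inhibitors. Counts in both lines moved with single libraries. In *Sox2* mutants 12 of the 81 passed (14.8%, beside 8.08% of all genes), and 5, 3 and 27 without controls 1, 2 and 3 and 7 and 4 without mutants 3 and 4. Over all genes the calls moved the same way, from 1261 to 554, 494, 2161, 906 and 495. In *Nr2f1* mutants 22 passed without mutant B, where all calls went from 396 to 868. Of these, control 3 and mutant B also set calls of the collagen genes, as given above. The part of the vascular and meningeal cells in these counts was not tested.

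**Figure D4:**
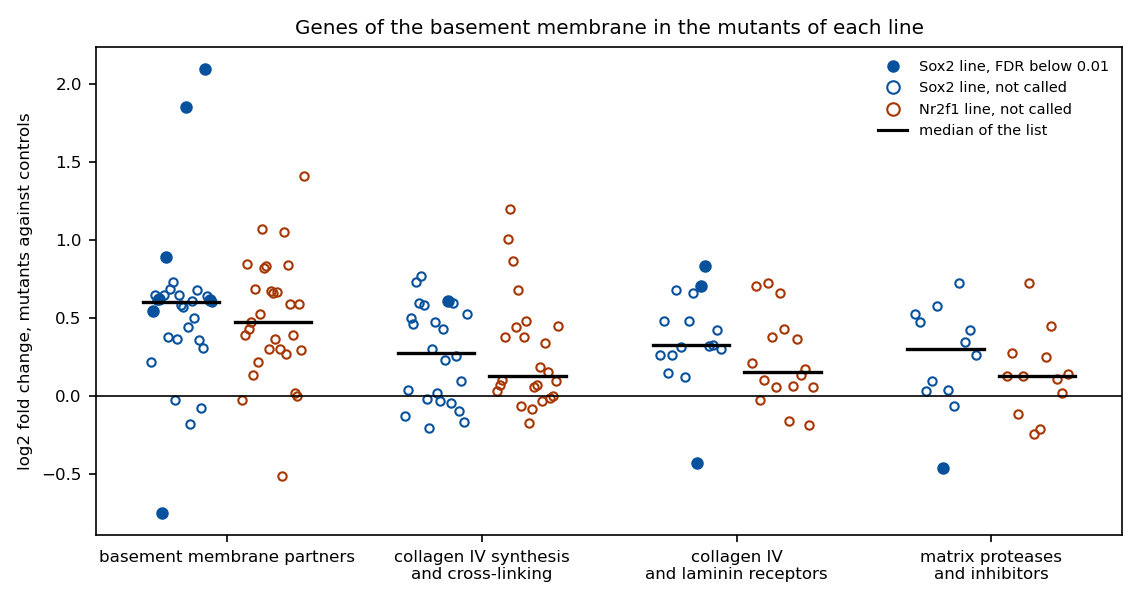
log2 fold change of mutants against controls for the genes of 4 lists around type IV collagen, in the *Sox2* line (blue) and the *Nr2f1* line (brown). Filled points passed FDR below 0.01 and black lines are medians. Most points lie above 0 in both lines, 12 are filled for the *Sox2* line and 0 for the *Nr2f1* line.

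Markers of other cell types were read beside the 8.08% and 2.54% of all genes that passed in the *Sox2* and *Nr2f1* lines. An unadjusted p below 0.05 was met by 35.0% and 24.6% of all genes, and DESeq2 called 12.6% and 5.80%. Microglial markers rose in 11 of 12 genes, from a sum of 170 ± 12.04 to 378 ± 33.3 CPM, and astrocyte markers in 7 of 12, from 1478 ± 107 to 2319 ± 155 CPM. In the *Nr2f1* line 0 microglial genes passed edgeR (7 at an unadjusted p below 0.05, 5 with DESeq2), with sums of 145 ± 10.8 and 190 ± 19.1 CPM, and 1 astrocyte gene, the water channel gene *Aqp4*, rose (0.38, SE 0.07, FDR = 0.00850 in edgeR), with sums of 1204 ± 23.7 and 1440 ± 87.8 CPM. The call of *Aqp4* was lost without any library of that line but mutant B (edgeR FDR up to 0.0374) and with Y-linked genes as a covariate (0.0308). Of 10 genes of thalamic glutamatergic neurons, 6 fell and 1 rose in *Sox2* mutants and 3 fell and 1 rose in *Nr2f1* mutants. Their sum went from 2991 ± 322 to 2150 ± 178 CPM in the *Sox2* line and from 3563 ± 174 to 3102 ± 272 CPM in the *Nr2f1* line. In *Nr2f1* mutants the call of *Cdh8*, which fell, was lost in 3 of 6 fits that each left out a library (edgeR FDR up to 0.0211). That of *Prox1*, which rose, was lost in 2 of 6 (up to 0.0149). The part of these cells in the levels of the collagen genes was not tested.

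The remaining lists mark border macrophages, GABAergic neurons, which the dLGN itself also holds, and tissue outside the dLGN. Of all genes, 8.08% and 2.54% passed edgeR in the *Sox2* and *Nr2f1* lines. At an unadjusted p below 0.05 these shares were 35.0% and 24.6%, and with DESeq2 12.6% and 5.80%. Border macrophage markers (most abundant *Mrc1*) summed to 57.2 ± 19.6 and 87.4 ± 29.8 CPM in controls and mutants of the *Sox2* line and to 45.7 ± 5.30 and 83.6 ± 29.9 CPM in those of the *Nr2f1* line, with 0 genes called by edgeR in either, 1 and 4 at an unadjusted p below 0.05 and 0 and 1 with DESeq2. GABAergic markers summed to 151 ± 23.5 and 233 ± 30.2 CPM and to 158 ± 7.29 and 227 ± 69.2 CPM, with *Otx2* higher in *Sox2* mutants (0.48, FDR = 0.00856 in edgeR), where 10 of 11 genes were at an unadjusted p below 0.05 and DESeq2 called 6, and 0 genes called by edgeR in *Nr2f1* mutants (8 at an unadjusted p below 0.05, 1 with DESeq2). Choroid plexus markers (most abundant *Ttr*) ran from 10.4 to 149 CPM over the *Sox2* line libraries and from 29.5 to 80.6 CPM over those of the *Nr2f1* line, with *Prlr* higher in *Sox2* mutants (1.15, FDR = 0.00424 in edgeR; 3 at such a p, 1 with DESeq2) and 0 called by edgeR in *Nr2f1* mutants (4 and 2). Pallial and hippocampal markers summed to 39.8 ± 15.9 and 98.0 ± 59.1 CPM and to 32.2 ± 4.74 and 30.8 ± 5.93 CPM, with 0 called by edgeR in either line (6 and 0 at an unadjusted p below 0.05, 1 and 0 with DESeq2). Habenular markers summed to 17.7 ± 1.92 and 13.6 ± 1.36 CPM and to 19.7 ± 3.98 and 17.8 ± 2.21 CPM, with *Chrna3*, the most abundant at 15.6 CPM in controls, lower in *Sox2* mutants (−0.57, FDR = 0.00834 in edgeR) and 0 called by edgeR in *Nr2f1* mutants (0 at an unadjusted p below 0.05 and 0 with DESeq2). The sum follows *Chrna3*: of the habenular genes tested, 4 of 5 in the *Sox2* line and 3 of 4 in the *Nr2f1* line had positive log2 fold changes, with medians of 0.57 and 0.52, and none of these passed. The call of *Otx2* was lost without control 1 or 2 or mutant 1 or 4 (edgeR FDR up to 0.0428), that of *Prlr* without control 2 or mutant 1 or 3 (up to 0.0200), and that of *Chrna3* without any library but control 3 (up to 0.0452). The part of the cells these lists mark in the collagen levels was likewise not tested.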

How the data were processed

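RNA-seq was measured in 12 libraries of P0 dLGN. Per the methods of the study, the authors aligned paired reads with STAR to the RefSeq mouse transcriptome and estimated expression with RSEM; the submitters' processing notes name mm10. The authors deposited a table of gene-level expected counts for each line, not normalized, which were used here; 7.77% were not whole and were rounded. Whether reads were counted by strand was not given in the sources used here, so reads in the bases that the members of a pair share cannot be told apart. Columns name the group but not which sample, and were used as replicates of their group.

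Each line was tested against its own controls in edgeR 4.0.16 by its quasi-likelihood F-test in R 4.3.3 (filterByExpr with minimum count 10 and minimum total count 15, TMM), with Benjamini-Hochberg FDR over all genes and a threshold of 0.01. SE is the log2 fold change divided by the square root of F. The difference between the mutants was the interaction over 12 libraries. CPM use TMM over 12 libraries, and lengths are those of GENCODE M21 transcripts matched to RefSeq. Positions of the 6 genes and promoter sequences of 5 are those of RefSeq on GRCm38. Alternatives were no filter, DESeq2 1.42.0, a minimum of 10 counts in each library, normalization by upper quartile, the other setting of legacy in glmQLFit, a fit over 12 libraries, Y-linked genes as a covariate, the replicate block, FDR below 0.05, exon unions as length, Spearman's rho, and leaving out each library. The tests were checked on simulated counts.

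Named genes were the members, the targeted genes and *Rora*, the 3 tested genes nearest to each pair on each side, up to 3 called genes of each pathway list per line and direction with the smallest p, the most abundant and up to 2 marker genes with the smallest p of each list, and the 5 genes most like each pair; some marker genes that meet the rule are not named. The members and lists were chosen with earlier results of these data known, and lists are described by counts and medians, without a set test.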

Additional observations from a re-analysis of the deposited data

Results flagged for a closer look

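Changes that went apart between the lines are given here as values. For *Col4a3* and *Col4a4* each *Sox2* mutant lay below its controls and each *Nr2f1* mutant above its own, with differences of −2.72 and −2.92 on the log2 scale that were not tested, since the genes were chosen for them. The 5 genes most like them differed by −2.82 (*Trpm8*), −2.70 (*St14*), −1.13 (*Dact1*), −1.09 (*Large*) and −0.86 (*Cacna1d*), likewise chosen for their pattern and not tested.

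Among the other genes named, the interaction of line and genotype passed FDR below 0.01 for 6, beside 1.44% of all genes tested. The targeted genes did so as their deletion was made in different lines: *Sox2* differed by −0.84 (SE 0.15, FDR = 0.00603 in edgeR) and *Nr2f1* by 1.19 (SE 0.22, FDR = 0.00742 in edgeR). *Rora* differed by −1.70 (SE 0.18, FDR = 1.18e-04 in edgeR). *Prox1*, a transcription factor on the list of thalamic neuron markers, had log2 fold changes of −0.84 and 1.10 in *Sox2* and *Nr2f1* mutants and differed by −1.93 (SE 0.20, FDR = 9.85e-05 in edgeR). Its call within *Nr2f1* mutants was lost without control B or D (edgeR FDR = 0.0149 and 0.0108) and with Y-linked genes as a covariate (0.0182). The microglial receptor gene *Cx3cr1* differed by 0.69 (SE 0.12, FDR = 0.00402 in edgeR). *Smoc2*, the matrix gene at 0.690 CPM in the *Sox2* line controls, differed by 2.10 (SE 0.40, FDR = 0.00950 in edgeR), close to the threshold. *Prox1*, *Cx3cr1* and *Smoc2* were named for a small p within a line, so the count of 6 cannot be set against the share of all genes. Alternatives of the interaction were read for the collagen genes alone, so the stability of these 6 calls is not known.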

How the results depend on the processing

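*Col4a1*, *Col4a2*, *Col4a5* and *Col4a6* kept their direction within each line under every alternative run. So did *Col4a3* and *Col4a4*, but these were chosen by their directions in the same libraries, so for them this is a description and no check. The calls in *Sox2* mutants numbered 3095 at FDR below 0.05, 2447 with DESeq2 and 2075 in the fit over 12 libraries, against 1261. In *Nr2f1* mutants they numbered 1154, 1120 with DESeq2 and 84 with Y-linked genes as a covariate, against 396, and for the difference between the mutants 538 and, with DESeq2, 543, against 231. Pathway genes called were 26 at FDR below 0.05 and 24 with DESeq2 in *Sox2* mutants, and 9 at FDR below 0.05, 11 with DESeq2 and 4 without a filter in *Nr2f1* mutants. At FDR below 0.05 *Col4a6* (1.11) passed in *Nr2f1* mutants, and the Y-linked covariate took *Col4a4* there to 1.04. By Spearman's rho 0, 0 and 3 of the 5 genes most like the *Col4a1*, *Col4a3* and *Col4a5* pairs were again among the first 5. With Y-linked genes as a covariate the calls of *Sox2*, *Aqp4*, *Myo16*, *Prox1* (edgeR FDR 0.0182) and *Cdh8* (0.0347) in *Nr2f1* mutants and of *Irs4*, *P4ha3* (0.0209), *Prlr* (0.0128), *Otx2* (0.0202) and *Chrna3* (0.0145) in *Sox2* mutants were lost. The call of *Chrna3* was also lost with upper quartile normalization (0.0110) and the fit over 12 libraries (0.0152). The cause was not tested.

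With the replicate block, fitted on the 4 *Sox2* line libraries with shared numbers, 23 pathway genes and 1532 genes in all passed, against 12 and 1261, and *Col4a5* (0.51, FDR = 0.00157 in edgeR, up to 0.225 over its alternatives) and *Col4a6* (0.51, FDR = 0.00344 in edgeR, up to 0.331) passed. The calls of *Mmp24* (edgeR FDR 0.0106) and *Otx2* (0.0242) were lost. Deviations from the group means correlated at 0.176 and 0.156 within the 2 pairs and at −0.280 to 0.152 between libraries of unlike number. The pairs had the highest values, but 2 pairs were too few to take the numbers as pairing the libraries. For the *Nr2f1* line no paired analysis was possible because its columns share a single letter.

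Leaving out a library gave 494 to 2161 calls in *Sox2* mutants (554 without control 1, 494 without control 2, 2161 without control 3, 495 without mutant 4), 133 to 868 in *Nr2f1* mutants (144, 169 and 179 without controls B, D and E, 133, 868 and 226 without mutants A, B and C) and 133 to 308 for the difference (133 and 148 without *Sox2* line control 2 and mutant 4, 139 and 135 without *Nr2f1* line control D and mutant A). Pathway calls ran from 3 to 27 and from 0 to 22. In *Sox2* mutants *Col4a1* ran from 0.31 to 0.79, *Col4a2* from 0.29 to 0.71, *Col4a5* from 0.43 to 0.96 and *Col4a6* from 0.46 to 1.17, and in *Nr2f1* mutants *Col4a1* from 0.48 to 0.83, *Col4a2* from 0.41 to 0.75, *Col4a5* from 0.67 to 1.18 and *Col4a6* from 0.83 to 1.42. The differences between the mutants, near 0, changed sign: *Col4a1* −0.32 to 0.16, *Col4a2* −0.26 to 0.15, *Col4a5* −0.47 to 0.048 and *Col4a6* −0.64 to 0.054. That of *Col4a4* ran from −2.98 to −2.76.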
